A study of Gallus gallus with 12 samples.

Results

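The genes described are T, the chick Brachyury gene, and GNOT1, a notochord homeobox gene. They are 2 of the 13106 genes in the deposited tables and were taken by their Ensembl identifiers, ENSGALG00000011489 and ENSGALG00000016090, with no measured value in the choice. RNA was sequenced from 6 chick (Gallus gallus) embryos, with 2 libraries from each. The node library holds cells of the mature Organiser, or Hensen's node, that were fluorescently marked late in gastrulation and were still there at the stage of collection. The lateral library holds the ectoderm and mesoderm beside the node of the same embryo, which takes in neural plate and forming presomitic mesoderm. In 3 live embryos the tissue was dissected by hand (manual). The other 3 embryos were fixed in modified methacarn and sectioned in paraffin, and tissue was taken by laser capture microdissection (LCM). The stage was 8 somites for manual embryo 1 and LCM embryo 1, and 9 somites for the rest. The labels name no transgene, treatment or strain. The 4 groups (manual node, manual lateral, LCM node and LCM lateral) thus have 3 libraries each.

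Brachyury is the founding member of the T-box family of transcription factors. It is active in the primitive streak, in the axial progenitors that lengthen the trunk and in the notochord, and its transcription in the streak and tail bud is maintained by Wnt and FGF signals. GNOT1 belongs to the Not family of homeodomain transcription factors, which are known from the organiser and notochord of frog, fish, chick and mouse. In zebrafish the Not gene floating head is needed to keep axial cells on the notochord path.

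T lies on chromosome 3 at 42233586 to 42241528, on the plus strand, and carries the RefSeq symbol TBXT. GNOT1 lies on chromosome 4 at 89237871 to 89241342, on the minus strand, and carries the RefSeq symbol NOTO. The spans are of whole genes as the tables give them, and the sources used here do not name the genome build. Neither span overlaps another gene of the tables. SMYD5 lies 1448 bases to one side of GNOT1 and ENSGALG00000010588 lies 8692 bases to the other, each on the minus strand. The latter has the RefSeq symbol GNOT2, so the Not genes stand side by side. Reads from stretches that GNOT1 and GNOT2 share could be counted for either.

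Total counts ran from 18568123 to 30997461 per library, and 7235 to 11497 genes had at least 1 count. The node library of LCM embryo 2 shared genes with manual embryo 1 that no other embryo had. For 104 genes with at least 100 counts in the lateral library of manual embryo 1 and 0 counts in the other 9 libraries, it held 6.22% of that lateral library's counts, and 100 of the 104 were present. A carried share of that size would make up 109 of its 17999 counts of T and 23 of its 810 counts of GNOT1. The lateral library of LCM embryo 2 held blood, with a summed CPM (counts scaled to a common library total) of 724 over 7 blood and endothelium genes, where the other libraries held 0.0841 to 37.2.

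T was read in all 12 libraries and had more reads in the node than beside it in every embryo. In CPM scaled by the trimmed mean of M values, T stood at 296 in the node and 54.9 in lateral tissue of manual embryo 1. Manual embryo 2 had 841 and 26.3, and manual embryo 3 had 415 and 174. LCM embryo 1 had 1360 and 906, LCM embryo 2 had 1080 and 148, and LCM embryo 3 had 950 and 333. In this scaling the node and lateral values of T did not overlap within either method. For LCM the separation depends on the scaling. As a share of total counts, the node of LCM embryo 2 (0.0818%) lay below lateral tissue of LCM embryo 1 (0.0853%). The deposited normalized values also overlapped there (16300 against 18900). Of all 9491 genes tested, 3.95% had non-overlapping groups with the node higher in the manual libraries and 5.84% in the LCM libraries.

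The node exceeded lateral tissue by 1.5-fold in LCM embryo 1, the narrowest gap, and by 31.9-fold in manual embryo 2, the widest. Over the 6 embryos the log2 difference of T averaged 2.27 ± 1.57 (SD, n = 6). It was positive in 6 of 6 embryos, a pattern shown by 2.36% of the tested genes, and an exact 2-sided sign-flip permutation test over embryos gave p = 0.0312, the smallest value 6 pairs allow. In bulk tissue, a larger share of T-positive cells and more T RNA per cell cannot be told apart.

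In edgeR's quasi-likelihood test with the embryo as a block, the log2 fold change of T was 2.2 ± 0.48 (SE; 95% interval 1.17 to 3.23), or 4.59-fold. The median over all tested genes was 0.17. T did not pass after Benjamini-Hochberg adjustment over all genes (edgeR adjusted p = 0.579), and neither did any other gene (0% called by edgeR and 245 genes by DESeq2; 3.41%, or 324 genes, had an unadjusted edgeR p under 0.05). By p value T stood at rank 8 of 9491. T did pass in DESeq2 (log2 fold change 2.09, adjusted p = 0.0025) and in edgeR when genes of low count were kept (2.24, adjusted p = 7.02e-09). The call thus depended on the test and on whether genes of low count were kept. Estimates ran from 1.63 in limma voom (adjusted p = 0.259) to 2.24 over the alternatives, and from 1.59 to 2.55 when each embryo was left out.

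**Figure D1:**
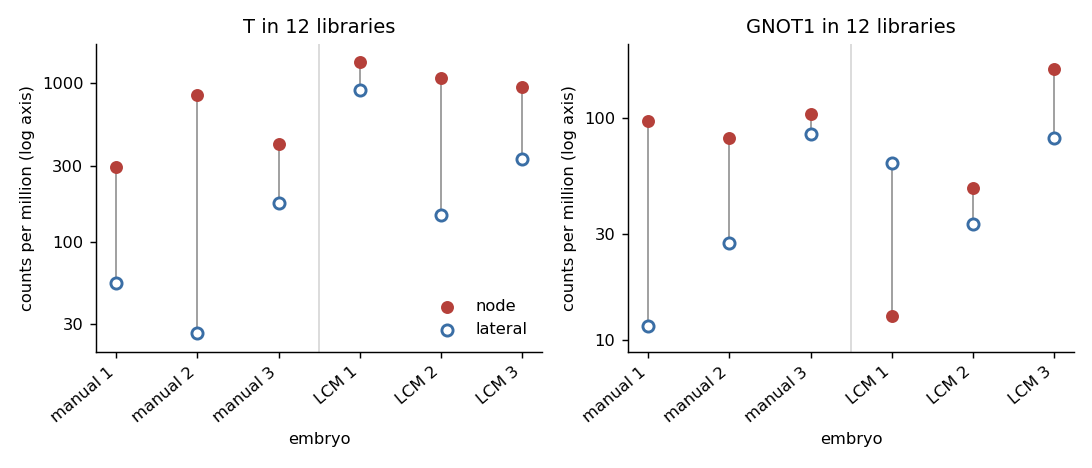
CPM of T (left) and GNOT1 (right) on log axes, by embryo, with the node library as a filled point, the lateral library as an open point and a line joining libraries of the same embryo. T is higher in the node of all 6 embryos, from 1.5-fold in LCM embryo 1 to 31.9-fold in manual embryo 2, and GNOT1 is lower in the node of LCM embryo 1 (12.8 against 62.8).

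GNOT1 was also read in every library, but its node values separated less from lateral tissue. In CPM, GNOT1 stood at 96.9 in the node and 11.5 in lateral tissue of manual embryo 1. Manual embryo 2 had 81.5 and 27.4, and manual embryo 3 had 104 and 84.6. The manual node libraries were thus closely alike, at 94.1 ± 11.5 CPM (SD, n = 3), while the manual lateral libraries ranged over 7.34-fold and the highest of them overlapped the node values.

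In LCM embryo 1 the order was turned, with 12.8 CPM of GNOT1 in the node and 62.8 in lateral tissue. LCM embryo 2 had 48.5 and 33.3, and LCM embryo 3 had 166 and 81.2. The LCM node libraries therefore spanned 12.9-fold and overlapped the LCM lateral ones. The low value rests on 333 counts in the node library of LCM embryo 1 (exact 95% Poisson interval 298 to 371), against 1251 in its lateral library (1180 to 1320). These intervals cover counting error only.

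Over the 6 embryos the log2 difference of GNOT1 averaged 0.70 ± 1.76 (SD, n = 6) and was positive in 5 of 6 embryos. In LCM embryo 2 the size of the gap depends on the scaling. Its node and lateral libraries were nearly level in the deposited normalized values (734 and 728). They were also nearly level as a share of total counts (0.00368% and 0.00363%). Of all tested genes 12.3% were positive in at least 5. The exact 2-sided sign-flip permutation test gave p = 0.375. The fitted log2 fold change was 0.77 ± 0.70 (SE; 95% interval -0.74 to 2.28; edgeR adjusted p = 0.999). This interval includes no difference as well as the fold found for T. Single embryos moved these values in either direction. Without LCM embryo 1 the mean difference was 1.3 (exact permutation p = 0.0625, the smallest that 5 pairs allow) and the fitted value 1.28. Without manual embryo 1 the mean difference was 0.23 (exact permutation p = 0.75) and the fitted value 0.17. The SDs of the embryo differences, 1.57 for T and 1.76 for GNOT1, lie under the median of 2.52 over all tested genes. That median takes in sparsely counted genes and is not matched for count level. It thus does not show whether the spread is usual for genes counted this deeply.

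Separate effects for each dissection method were then compared. In manual embryos the log2 fold change of T was 2.83 ± 0.67 (SE; edgeR adjusted p = 1), the smallest p value of the 9491 genes in that comparison. T passed there in DESeq2 (2.83, adjusted p = 0.00789) and in edgeR with genes of low count kept (2.81, adjusted p = 0.00126). It ran from 1.82 without manual embryo 2 to 3.73 without manual embryo 3. There 0% were called by edgeR (40 genes by DESeq2) and 0.98%, or 93 genes, had an unadjusted p under 0.05. In LCM embryos T was at 1.65 ± 0.61 (edgeR adjusted p = 0.906), where 0.0211% of genes (2) were called by edgeR and 873 genes by DESeq2, 5.22% had an unadjusted p under 0.05 and the median of all genes was 0.36. The difference of the methods, -1.18 ± 0.89 (95% interval -3.10 to 0.74; edgeR adjusted p = 1), did not pass. It ran from -0.38 without manual embryo 2 to -2.29 without manual embryo 3. No gene passed for that difference in edgeR (0% called, 2.59% or 246 genes at an unadjusted p under 0.05, and 256 called by DESeq2). For GNOT1 the effect was 1.64 ± 0.94 in manual embryos (edgeR adjusted p = 1) and -0.16 ± 0.96 in LCM embryos (edgeR adjusted p = 1). The LCM value of GNOT1 turned to 0.80 without LCM embryo 1. The difference of the methods for GNOT1 was -1.80 ± 1.34 (95% interval -4.71 to 1.10; edgeR adjusted p = 1).

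**Figure D2:**
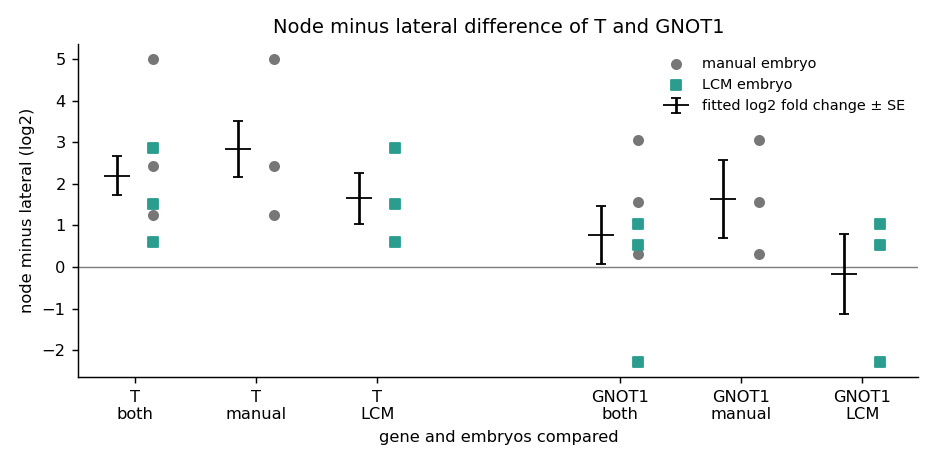
Node minus lateral difference on the log2 scale for T (left) and GNOT1 (right), over both methods, in manual and in LCM embryos. Points are single embryos (circles manual, squares LCM) and bars are fitted log2 fold changes ± SE. All 6 embryos lie above 0 for T, and LCM embryo 1 lies at -2.29 for GNOT1.

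The 4 groups were then put in order by their mean level. For T the LCM node was highest, at 1130 ± 211 CPM, followed by the manual node at 517 ± 287, LCM lateral tissue at 462 ± 395 and manual lateral tissue at 85.2 ± 78.5 (SD, n = 3 each). In CPM the LCM node values of T lay above all manual node values, as did those of 8.75% of tested genes. In the deposited normalized values the node of LCM embryo 2 (16300) lay below that of manual embryo 2 (17600). This separation thus depends on the scaling. Manual node and LCM lateral tissue are neighbours in this order and did not differ beyond their spread (exact 2-sided permutation p = 0.8). Of the lateral groups, LCM values ranged from 148 to 906 CPM and manual values from 26.3 to 174, so they overlapped.

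LCM libraries had more T than manual libraries in node tissue by 1.08 ± 0.43 on the log2 scale (SE; 95% interval 0.12 to 2.03; edgeR adjusted p = 0.451) and in lateral tissue by 2.42 ± 0.85 (95% interval 0.51 to 4.34; edgeR adjusted p = 0.358). Neither passed. In edgeR 0% of 7985 and 7851 genes were called, 10% and 9.53% (802 and 748 genes) had an unadjusted p under 0.05, and DESeq2 called 394 and 369. The methods were used on different embryos, so method and embryo cannot be told apart.

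For GNOT1 the manual node was highest, at 94.1 ± 11.5 CPM, followed on the CPM scale by the LCM node at 75.6 ± 79.9, LCM lateral tissue at 59.1 ± 24.2 and manual lateral tissue at 41.2 ± 38.4 (SD, n = 3 each). On the log2 scale the LCM node fell below LCM lateral tissue (5.55 against 5.79 log2 CPM), with LCM embryo 1 at 3.69 in the node. Of the 6 pairs of groups, the manual node and LCM lateral tissue alone did not overlap (exact 2-sided permutation p = 0.1, the smallest for 3 against 3), as was so with the manual node higher for 13.3% of tested genes. The margin was 81.5 CPM in the node of manual embryo 2 against 81.2 in lateral tissue of LCM embryo 3. As a share of total counts their order was turned (0.00783% against 0.0103%), so this separation depends on the scaling. The node groups of GNOT1 overlapped (exact 2-sided permutation p = 0.5), so their order is not settled. LCM minus manual was -0.36 ± 0.86 in node tissue (SE; edgeR adjusted p = 0.918), which turned to 0.19 without the LCM node library of embryo 1, and 0.53 ± 0.95 in lateral tissue (edgeR adjusted p = 0.923).

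A ratio of T to GNOT1 counts within a library does not depend on how libraries are scaled. It gives no relative abundance, because the genes differ in length and no transcript lengths were used, but its changes between libraries can be compared. The ratio was 3.05 in the node and 4.76 in lateral tissue of manual embryo 1, 10.3 and 0.96 in manual embryo 2, and 4 and 2.06 in manual embryo 3. In LCM embryos it was 106 and 14.4, 22.2 and 4.45, and 5.74 and 4.09. T was thus weighted more towards the node than GNOT1 was in 5 of 6 embryos, with manual embryo 1 as the exception. The node minus lateral difference of the log2 ratio averaged 1.57 ± 1.56 (SD, n = 6), which the exact 2-sided sign-flip permutation test did not separate from 0 (p = 0.0938).

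Averaged over the node and lateral library, the log2 ratio was 1.93, 1.65 and 1.52 in manual embryos 1 to 3 and 5.29, 3.31 and 2.28 in LCM embryos 1 to 3. Every LCM embryo lay above every manual embryo (exact 2-sided permutation p = 0.1, the smallest for 3 against 3). The difference of the means was 1.92. Manual tissue was live and LCM tissue fixed, and an effect of this on the ratio was not tested.

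**Figure D3:**
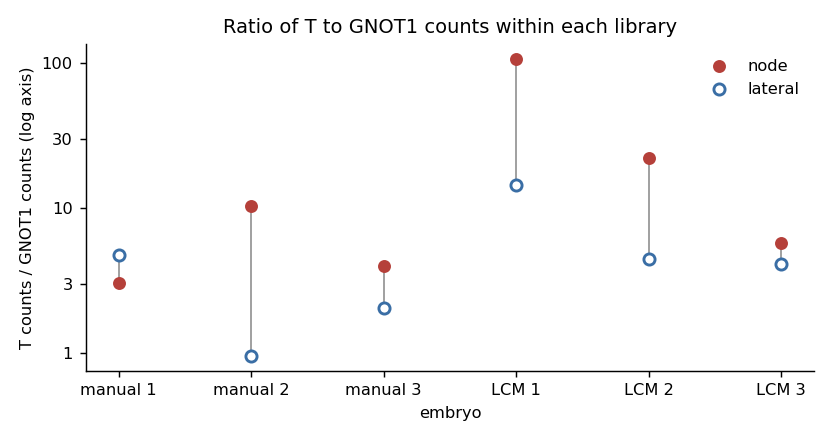
Ratio of T counts to GNOT1 counts in each library on a log axis, by embryo, with node libraries filled and lateral libraries open. The ratio is higher in the node in 5 of 6 embryos and reaches 106 in the node of LCM embryo 1, where GNOT1 is lowest among the node libraries.

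The genes whose levels most resembled those of T over the 12 libraries were FGF3, WNT8C, RAB28, CDH2 and ZMYND19. Likeness was Pearson's r of log2 CPM among 5731 named genes with an average log2 CPM of at least 3. Libraries of an embryo are not independent, so r is a description here. FGF3, a fibroblast growth factor, led with r = 0.868, followed by WNT8C, a Wnt ligand of the chick streak, at 0.862 and RAB28, a small GTPase, also at 0.862. CDH2, the gene of N-cadherin, had r = 0.857 and ZMYND19 had 0.846. The 5th to 95th percentile of r with T over all candidates ran from -0.512 to 0.551. By Spearman's coefficient these genes ranked 9, 15, 12, 9 and 40.5, and on the deposited normalized values they were again the closest 5.

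These genes were picked for levels like those of T, which was higher in every node, so a higher node value is partly built in. CDH2 had the higher count in the node of every embryo. In log2 CPM, 2.36% of tested genes were positive in 6 of 6 embryos. Manual embryos 1 to 3 had 4458 node counts against 2648 lateral counts, 4427 against 1142 and 2161 against 1468. LCM embryos 1 to 3 had 8349 against 3453, 6357 against 3923 and 14650 against 7274. FGF3 followed T in 5 of 6 embryos. Manual embryo 3 was the exception, with 1049 node and 2061 lateral counts. WNT8C had 852 against 67 counts in manual embryo 2 and 1447 against 57 in LCM embryo 2. It had fewer counts in the node of LCM embryo 1 (957 against 1080) and LCM embryo 3 (920 against 1067). In log2 CPM LCM embryo 3 was nearly level, at 5.06 against 5.02. The log2 fold changes were 1.19 ± 0.29 for CDH2 (edgeR adjusted p = 0.873), 1.44 ± 0.60 for FGF3 and 2.17 ± 1.13 for WNT8C (edgeR adjusted p = 0.999 for each).

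GNOT1 was not among the genes close to T, at rank 869 of 5731 with r = 0.368 (Spearman's coefficient 0.224). This value rose when a library was left out, and the other libraries were not left out in turn. Without the node library of LCM embryo 1, left out after its value was seen, r was 0.70 over 11 libraries. The genes closest to GNOT1 were PDCD4, an inhibitor of translation, with r = 0.855 (0.80 without that library), SEMA3D, a secreted guidance cue, with 0.788 (0.693), and C3H20ORF72 with 0.762 (0.648). EAF2, a factor that associates with transcription elongation complexes, followed with 0.743 (0.625), and ARHGAP18 with 0.721 (0.581). PDCD4 was lowest in the same library, with 593 counts against 3000 in the lateral library of that embryo, and SEMA3D likewise, with 263 against 850. By Spearman's coefficient PDCD4 ranked 16 and the other 4 ranked from 107 to 405.5.

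**Figure D4:**
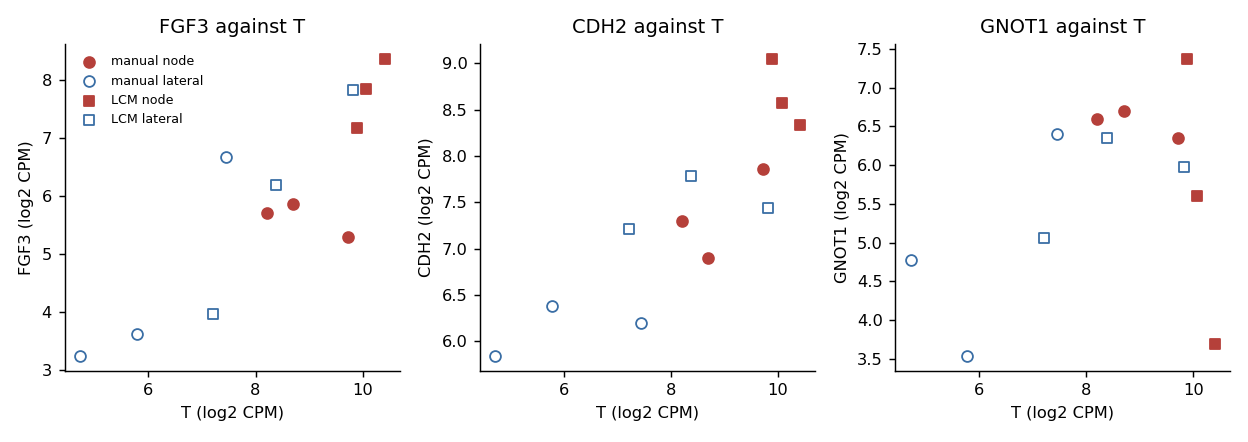
Log2 CPM of FGF3 (left), CDH2 (middle) and GNOT1 (right) against T in 12 libraries, with node libraries filled, lateral libraries open, manual libraries as circles and LCM libraries as squares. FGF3 and CDH2 rise along with T (r = 0.868 and 0.857), while the LCM node library of embryo 1 has the highest T and nearly the lowest GNOT1.

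The embryo differences of T and GNOT1 were compared directly. Over 6 embryos Pearson's r was 0.568 (exact permutation p = 0.235, adjusted 0.235) and Spearman's coefficient 0.714 (exact permutation p = 0.136, adjusted 0.235), with 2 coefficients computed. Leaving out the embryos farthest from the median of T, manual embryo 2 and LCM embryo 1, gave r = 0.345. Each method has 3 embryos, too few for a value within methods.

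Among genes of Wnt and FGF signalling, through which Brachyury is known to be maintained, positive node minus lateral values prevailed. Of 25 such genes counted here, 24 were tested, 20 had positive values and 0 passed after adjustment, with a median log2 fold change of 1.25. Over all genes 57.8% were positive. LEF-1, a transcription factor that carries the Wnt signal to target genes, was at 1.06 ± 0.34 and CTNNB1, the gene of beta-catenin, at 0.57 ± 0.23 (edgeR adjusted p = 0.999 for each). LEF-1 had the higher count in the node of all 6 embryos, with 7723 against 4331, 9368 against 2858 and 8254 against 4177 in LCM embryos 1 to 3. FGF4 had 227, 407 and 322 counts in the LCM node libraries against 13, 0 and 1 beside the node, but 1, 1 and 59 against 6, 0 and 0 in manual embryos. FGF8 stood at 0.77 ± 0.46, and SPRY2, a feedback inhibitor of FGF signalling, at -0.16 ± 0.21. The other negative members were FZD10 at -0.4, FGFR2 at -0.39 and ETV5 at -0.17. WNT3A was at -0.36 ± 0.6 in manual and 1.24 ± 0.59 in LCM embryos.

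Genes known downstream of or beside Brachyury in mouse or frog mesoderm had mostly positive values over both methods. Of 23 counted here, 19 were tested, 16 had positive values and 0 passed, with a median of 0.73. Over both methods 57.8% of all genes were positive, with a median of 0.17. WNT3A, WNT5A, WNT11, FGF4 and FGF8, all positive, also stand in the Wnt and FGF list, so the tallies are not independent. In manual embryos 10 of the 19 were positive with a median of 0.13, where 49.3% of all genes were positive with a median of -0.01. In LCM embryos 17 were positive with a median of 1.14, where 60.6% of all genes were positive with a median of 0.36. SNAI2, a repressor of epithelial genes, was at 1.47 ± 0.41 (edgeR adjusted p = 0.999). Its relative SNAI1 was at -0.02 ± 0.82 in manual and 4.14 ± 0.96 in LCM embryos (edgeR adjusted p = 1 for the difference of the methods). TBX6, a T-box gene of the presomitic mesoderm, was at -0.38 ± 1.22 in manual and 3.73 ± 1.55 in LCM embryos, with 4412 against 2931 counts in LCM embryo 1 and 2705 against 184 in LCM embryo 3. In the node library of LCM embryo 2 the 52 counts of TBX6, 33 of MSGN1 and 387 of SNAI1 were no more than the carried share would give (101, 40 and 707). A share of 6.22% is thus too high for these genes.

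In the T-box family itself 5 further members were tested, 4 had positive values and 0 passed, with a median of 1.22, or 0.74 with the carried share subtracted. Among all genes 57.8% were positive and edgeR called 0%. The median of all genes was 0.17, or -0.06 with the carried share subtracted. TBX3 was at 4.14 ± 2.29 and TBX18 at 5.98 ± 3.27, the latter positive in 3 of 6 embryos. In the node library of LCM embryo 2 their 9 and 6 counts were below the carried share (11 and 12), and no other LCM library had a count of TBX18. MGA, which has a T-box as well as a second DNA-binding domain, was at 0.93 ± 1.15. EOMES, the T-box gene of early mesendoderm, was at -2.23 ± 2.19, and had 1692 counts in the lateral library of LCM embryo 1.

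The neighbouring GNOT2 was far sparser than GNOT1. It had 56 node and 3 lateral counts in manual embryo 1, 22 and 0 in manual embryo 2 and 3 and 124 in manual embryo 3. In LCM embryo 1 GNOT2 had 0 in each library, in LCM embryo 2 it had 3 and 0, and in LCM embryo 3 it had 602 and 84. Its log2 fold change was 3.38 ± 2.44 (edgeR adjusted p = 0.999). Each Not gene thus had its highest node count in LCM embryo 3.

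The levels of other genes known from the node and notochord varied between embryos. Of 18 counted here, 12 were tested, 9 had positive values and 0 passed, with a median of 2.47. Among all genes 57.8% were positive with a median of 0.17, and edgeR called 0%. In LCM embryos alone 7 of the 12 were positive, near the 60.6% of all genes. The negative members were COL9A1, a collagen gene, at -4.74 ± 3.82 and the keratin genes KRT8 at -3.86 ± 3.22 and KRT19 at -0.53 ± 0.55. KRT8, KRT19 and the positive KRT18 (4.9 ± 2.22) also stand in the surface ectoderm list, and the lateral libraries take in ectoderm. CFC1, a co-receptor for Nodal ligands, was at 9.17 ± 1.75 (SE, edgeR adjusted p = 0.409). It was positive in 6 of 6 embryos, as were 2.36% of tested genes. Its 17 counts in the node library of LCM embryo 2 were below the carried share (18). CFC1 had 873 node and 4 lateral counts in LCM embryo 1, and LEFTY2, a Nodal antagonist, had 418 and 0. CHRD, the gene of the BMP antagonist chordin, had 0 and 1 there, SEMA3E 0 and 2, NOG 0 and 0, and the Hedgehog ligand gene SHH 0 and 0. COL9A1 had 29 and 0 there, KRT18 21 and 0, KRT8 0 and 155, and KRT19 1260 and 1363. LCM embryo 1 thus showed higher node counts of T, CFC1, LEFTY2, COL9A1 and KRT18. It had none of CHRD, SEMA3E, SHH, NOG or KRT8 in the node. That node library had 7590 genes detected, the fewest of the node libraries, and its lateral library had 7235, the fewest of all. The part of this sparseness in the zero counts was not tested. SHH was at 0 in all 6 LCM libraries, in contrast to 57, 7 and 38 counts in the manual node libraries. In LCM embryo 3, where GNOT1 was highest, CHRD had 543 node counts against 0 and SEMA3E 291 against 0, while COL9A1 had 3 against 246 and NOG 0 against 16, and KRT8 had 0 in the node against its highest count of any library beside it.

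**Figure D5:**
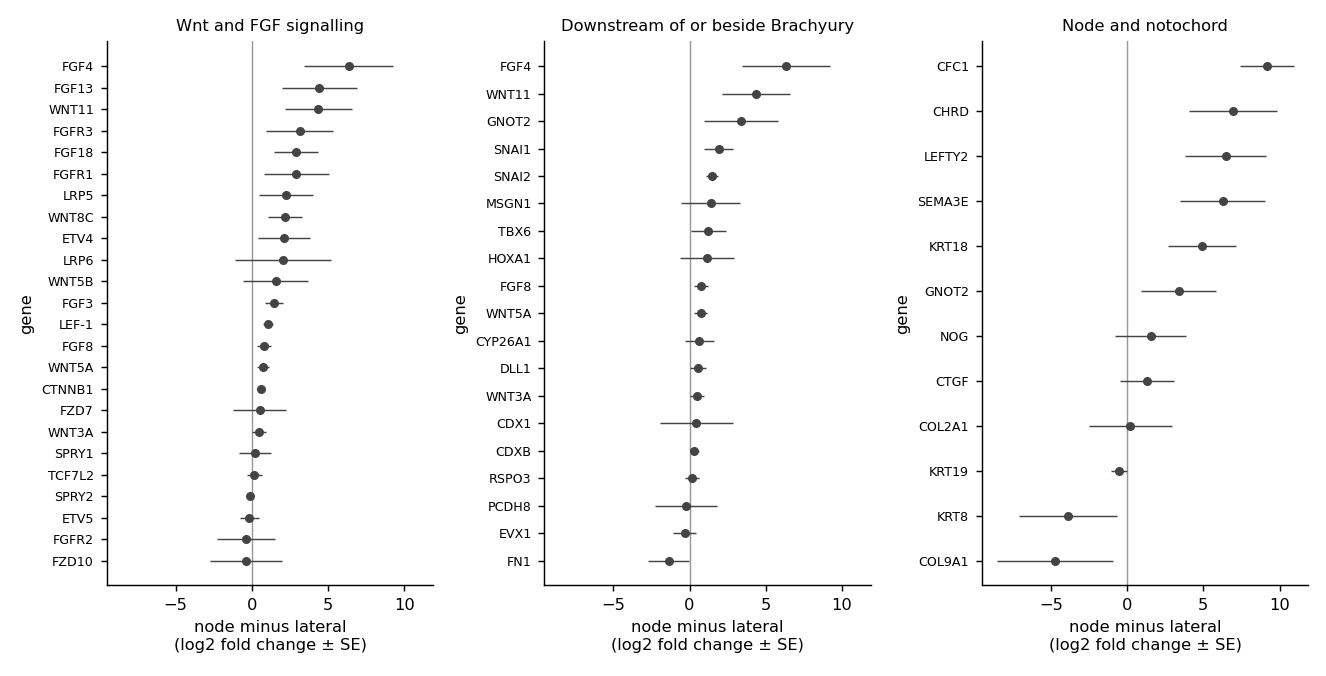
Fitted log2 fold change ± SE of node minus lateral over both methods for the tested genes of 3 lists, ordered by value within each. Positive values make up 20 of 24 (Wnt and FGF signalling), 16 of 19 (downstream of or beside Brachyury) and 9 of 12 (node and notochord), and none passed after adjustment. The lists share genes, and 57.8% of all tested genes were positive.

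Markers of neighbouring tissues were summed in each library, with their values given beside those of T. Summed over 11 presomitic mesoderm genes, the level ran from 298 to 445 CPM in manual node and 170 to 309 in manual lateral libraries, and from 757 to 1400 in LCM node and 198 to 1150 in LCM lateral libraries. This sum was higher in the LCM node than in the manual node, as T was, but its genes did not move together. DLL1, a Notch ligand gene, had 470, 57 and 122 counts in manual node and 9448, 5840 and 6572 in LCM node libraries. MSGN1, a transcription factor gene of the presomitic mesoderm, had 874, 571 and 133 against 1103, 33 and 204. In the lateral library of LCM embryo 1 the sum was 1150, with 10355 counts of DLL1 and 0 of MSGN1. Over 9 neural plate genes the sum ran from 452 to 1770 in manual node, 350 to 2940 in manual lateral, 704 to 1820 in LCM node and 1010 to 3340 in LCM lateral libraries. FABP7 made up most of this sum in the lateral libraries, with 63392 counts in manual embryo 3 and 76210 in LCM embryo 3. The neural plate sum thus largely follows that gene there. Of the 5 neural plate genes tested, 2 were positive, CDH2 and SOX2 (1.4 ± 2.89), and 3 were negative. FABP7 was among the negative genes, at -1.23 ± 0.27 (edgeR adjusted p = 0.579). PAX-7, a dorsal neural gene, had 0 or 1 count in each node library, and 68, 1 and 0 counts in manual and 284, 118 and 743 in LCM lateral libraries. Over 13 endoderm genes the sum ran from 1000 to 3160 in manual node, 725 to 3230 in manual lateral, 227 to 463 in LCM node and 7.43 to 506 in LCM lateral libraries. Its make-up differed between libraries. In lateral tissue of manual embryo 1, RBP4 (ENSGALG00000006629) had 67711 and TF 16405 counts, above CXCR4, TTR and APOA1 at 4244, 4485 and 3700. In manual embryo 3 the same genes had, in this order, 232, 986, 22347, 114 and 1 counts. LCM embryo 2 had 13, 3548, 8729, 0 and 0. The sum can thus rest largely on RBP4 or on CXCR4 and does not measure endoderm content. TF was at 2.36 ± 0.37 over both methods (SE, edgeR adjusted p = 0.163). It was positive in 6 of 6 embryos, as were 2.36% of tested genes. The part of these tissues in the levels of T and GNOT1 was not tested.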

How the data were processed

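Per the labels' protocols, miRNeasy columns yielded 1 to 7 ng of total RNA, from which a SMARTer low RNA kit made the libraries. Bowtie2 2.2.3 was used, with no role given, per the submitters' processing notes. No source used here gives the counter, the genome build or the use of strand. Read counts for each Ensembl gene were deposited by the authors, with a normalized signal table, which is the counts divided by 1 size factor per library (deviation from median-of-ratios factors 0.0%).

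edgeR 4.0.16 in R 4.3.3 tested the counts by quasi-likelihood after TMM scaling and filterByExpr (minimum count 10, total 15), with p adjusted over all genes and a threshold of 0.05. Embryo was a block, since the labels name the same embryo for each pair. Deviations from group means correlated at 0.0295 to 0.473 within embryos. LCM and manual libraries were compared within a tissue without a block. For embryo differences, log2 CPM took a prior count of 2, and ratios had 0.5 added to each count. Replicates are separate embryos. Total counts per library ran from 18568123 to 30997461. Alternatives used DESeq2 1.42.0, limma 3.58.1 and log2 (value + 1) of the normalized table. The scripts were tested on simulated data. Besides T and GNOT1, the text names the 5 genes most like each and members of 12 lists. Up to 4 with the smallest p were planned for each list. Further members, such as SPRY2, SHH, NOG, GNOT2, EOMES, COL9A1, KRT8, KRT19, SOX2, DLL1, MSGN1, CXCR4 and RBP4, were added after their values were seen. The members and lists were chosen with earlier results of these data known. RefSeq symbols (GRCg7b table) were matched by Entrez identifier. No sequence is printed.

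Lists without a result above were somite (0 of 1 tested gene positive), surface ectoderm (3 of 8), axial progenitor (10 of 14), lateral plate and intermediate mesoderm (2 of 2) and blood and endothelium (2 of 3); of the tissue lists described by their sums, 2 of 5 neural plate, 9 of 10 presomitic mesoderm and 10 of 11 endoderm genes were positive. None of these genes passed, and over both methods edgeR called no gene at all. Among all tested genes 57.8% were positive. The presomitic mesoderm genes TBX6, MSGN1, DLL1, PCDH8, CYP26A1, RSPO3 and SNAI2 also stand in the list downstream of or beside Brachyury. Those tallies are therefore not independent.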

Additional observations from a re-analysis of the deposited data

How the results depend on the processing

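For T, edgeR without the replicate block gave 1.95 over both methods (adjusted p = 0.568), 2.60 in manual and 1.29 in LCM embryos, with no change of call. T passed in DESeq2 (2.09 over both methods, 2.83 in manual embryos) and without the filter on low counts (2.24 and 2.81), and in no other alternative; its estimate over both methods ran from 1.63 to 2.24 across these and from 1.59 to 2.55 when each embryo was left out. The sign-flip mean of T ran from 1.73 to 2.61 when each embryo was left out, where 5 pairs cannot give an exact p below 0.0625. GNOT1 in LCM embryos turned positive with limma voom (0.47) and without the replicate block (0.35), and ran from -0.79 to 0.80 when each embryo was left out. LCM minus manual of GNOT1 in the node ran from -1.63 to 0.19 when a library was left out, positive without the LCM node library of embryo 1. No alternative called GNOT1 in any comparison.

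Counts of called genes were 0 in edgeR for all comparisons but LCM (2). DESeq2 called 245 over both methods, 40 in manual and 873 in LCM embryos, 256 for the difference of the methods, and 394 and 369 for LCM minus manual in node and lateral tissue. Without the filter these were 36, 7, 33, 5, 50 and 124. In LCM embryos limma voom, limma on normalized values and subtraction of the carried share gave 0, and no replicate block gave 1, as it did over both methods. Leaving out an embryo or library gave 0 to 4 over both methods, 0 to 1 in manual and 1 to 9 in LCM embryos, 0 to 13 in node and 0 to 4 in lateral tissue. DESeq2 size factors moved the median of all genes in LCM embryos from 0.36 to 0.19, and T from 1.65 to 1.47. Subtraction set counts below the carried share to 0, as for TBX6 and SNAI1 in the node library of LCM embryo 2. With the carried share subtracted, an alternative chosen after seeing the data, 20 of 24 Wnt and FGF genes were positive. So were 14 of 18 genes downstream of or beside Brachyury, 8 of 12 node, 8 of 10 presomitic mesoderm and 5 of 9 endoderm genes.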
